A study of Mus musculus with 6 samples.

Results

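The 42 genes described here encode the ligands and receptors of the ephrin, Slit and netrin systems, which steer growing axons. They were taken by symbol from RefSeq's gene table for GRCm38 (mm10), and all 42 matched 1 of its 21883 protein-coding genes. The set holds 18 ligand genes and 24 receptor genes. The ligands are 5 ephrin-A genes, 3 ephrin-B genes, 3 Slit genes, 4 netrins, 2 netrin-G genes and Draxin. The receptors are 9 EphA genes, 5 EphB genes, 4 Robo genes and 6 netrin receptors.

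Open chromatin (ATAC-seq, in which a transposase cuts accessible DNA) and the histone mark H3K27ac (by ChIP-seq; lysine 27 of histone H3 carries an acetyl group at active promoters and enhancers) were mapped in TrkC neurons of mouse dorsal root ganglia. The neurons came from embryos at stage E11.5 of Runx3-BAC-GFP-CB6 transgenic mice and were sorted by GFP. TrkC neurons of the ganglion are the lineage of proprioceptors, which report muscle stretch. The groups were 2 ATAC, 2 H3K27ac ChIP and 2 input DNA samples, from 50000 cells per library, and all shared the transgene and the stage. The sort follows expression of a Runx3 transgene, so any other cell with GFP would also be in it. No mutant, treated group or other cell type was among the samples. The deposited values were 1 consensus peak list per assay, with positions and no heights. No spread between replicates, no test over samples and no sequencing depth can therefore be given. Every value below is a count of peaks, a width or a distance. A peak in these lists does not tell how many of the sorted cells carried it.

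Ephrins are cell-surface ligands that bind Eph receptor tyrosine kinases on neighbouring cells. Ephrin-A proteins are held by a lipid anchor and bind mostly EphA receptors, and ephrin-B proteins span the membrane and bind mostly EphB receptors. Signals can run into the receptor cell or back into the ligand cell. Slits are secreted proteins that repel axons through Robo receptors, and in the spinal cord Slit and Robo genes are known for the branching of sensory axons at their entry. Netrins attract axons through Dcc and neogenin, and repel them where Unc5 receptors take part. Netrin-1 of the spinal cord is known to hold back sensory axons through Unc5c.

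In what follows, a gene end covers 1 kb before and 1 kb after each of the gene's 2 annotated limits. A peak is inside a gene where its midpoint lies there, outside that gene's own end windows. A distal peak lies over 1 kb from the end of every protein-coding gene and was given to the gene whose end is closest, up to 100 kb away. Acetylated means that an ATAC peak shares at least 1 bp with an H3K27ac peak. The classes of inside and distal overlap: of 205 ATAC peaks counted for the 42 genes, 40 lay at an end, 33 lay inside alone, 89 lay inside and were also distal, and 43 were distal and outside the gene. Of these 205 ATAC peaks, 68 (33.2%) overlapped H3K27ac.

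Of these 42 guidance genes, 41 had an ATAC peak at an end, inside or assigned as distal. Over all protein-coding genes, 16533 of 21883 had one. Both ATAC and H3K27ac lay in the end windows of 23 members, in 22 of them at the same end. An ATAC peak lay at an end of 31 of the 42 genes (73.8%), against 60.4% of all protein-coding genes. H3K27ac lay at an end of 23 genes (54.8%), against 49.3% of all genes. Those 23 genes also had ATAC at an end, and both marks were found at 47.8% of all genes. The members' shares for H3K27ac and for both marks thus lay near those of all genes. They stood further apart among genes with no other gene's end in their end windows. There, both marks lay at 52.8% of 36 members, against 39.5% of all such genes, and H3K27ac at 52.8%, against 41.0%. ATAC at an end without H3K27ac at an end was found in 8 genes, or 19.0% against 12.6% of all genes (*Epha1*, *Epha2*, *Epha4*, *Ephb1*, *Robo2*, *Ntn5*, *Unc5b* and *Unc5d*). Neither mark lay at an end of 11 genes, or 26.2% against 38.1% of all genes (*Slit1*, *Slit2*, *Slit3*, *Ntng1*, *Ntng2*, *Epha6*, *Epha8*, *Robo1*, *Robo3*, *Robo4* and *Unc5a*). *Robo4*, a Robo receptor best known from blood vessels, was the only member with no peak in either list at its ends, inside it or assigned to it.

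**Figure D1:**
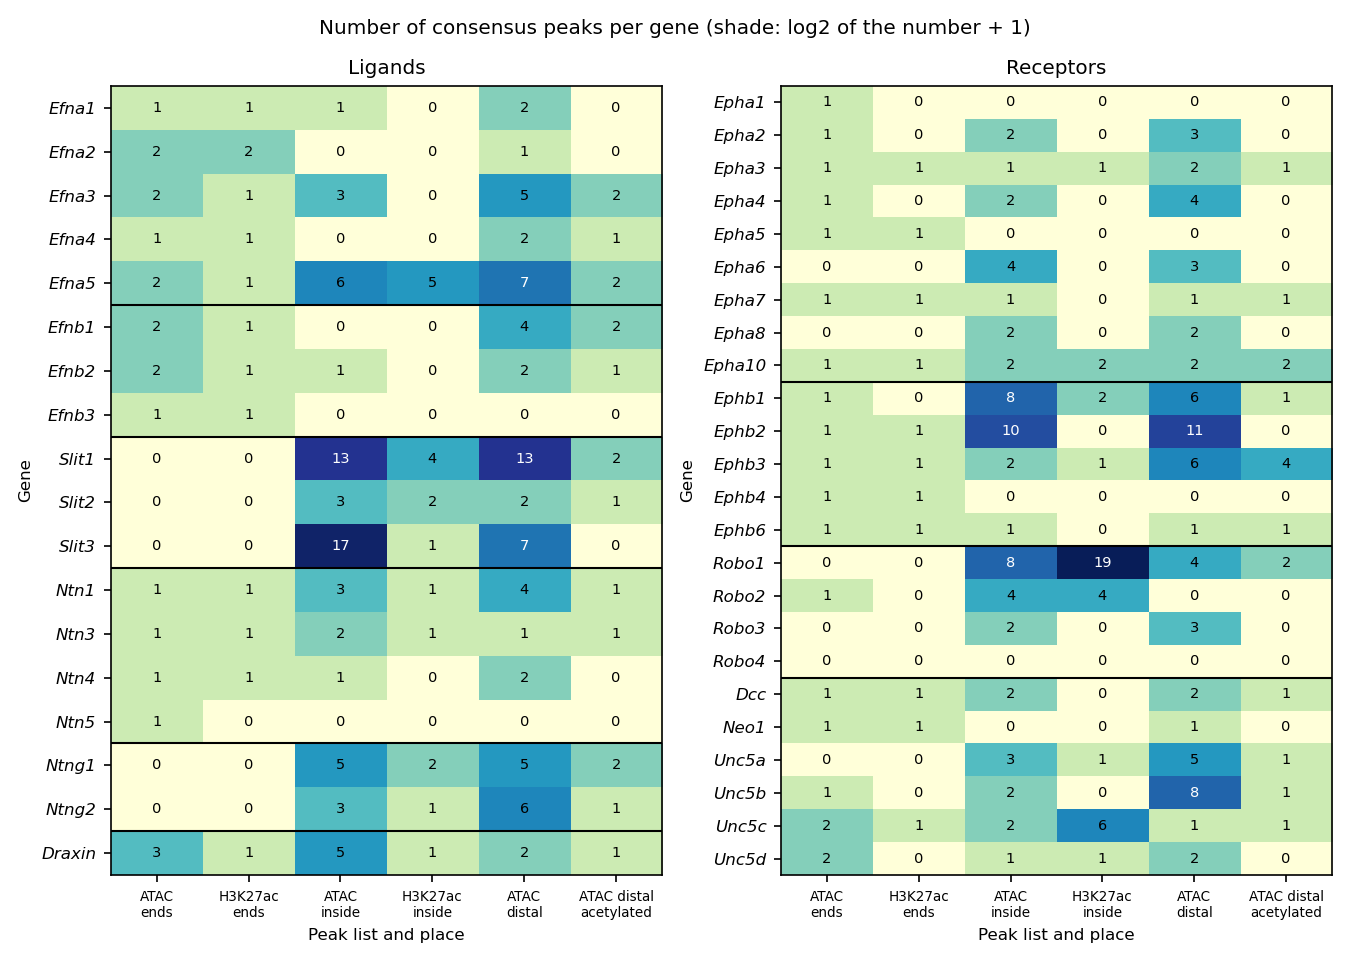
Number of consensus peaks for each of the 18 ligand genes (left) and 24 receptor genes (right), by peak list and place, with horizontal lines between roles; shade is log2 of the number plus 1. The Slit rows are at 0 at both ends and dark inside the gene, and *Robo1* has 19 H3K27ac peaks inside it.

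H3K27ac peaks at members' ends were broader in the median than those of all genes. The members had 24 H3K27ac peaks at their ends, with a median width of 1731 bp, against 1248 bp over the 9520 such peaks of all genes. All 24 overlapped an ATAC peak, which 95.2% of those of all genes did. Of the 40 ATAC peaks at members' ends, 28 (70.0%) were acetylated, against 72.8% of 15108 over all genes. The broadest mark lay at *Efna5* (4641 bp), which encodes an ephrin-A ligand. It was followed by *Ntn3* (3667 bp), *Unc5c* (3666 bp), *Efnb2* (3370 bp), *Epha7* (3284 bp) and *Efnb1* (3171 bp). The mark of *Efna5* was wider than that of 98.3% of all genes with H3K27ac at an end, and the mark of *Efnb1* wider than that of 94.9%. The narrowest was at *Efnb3* (480 bp), wider than 7.68%.

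All 8 ephrin genes had both marks in their end windows, and 7 of them at the same end, *Efna1* being the exception. Among the ephrin-A ligands, *Efna5* had 2 ATAC peaks at its 5′ end (271 and 172 bp), 6 ATAC and 5 H3K27ac peaks inside, and 2 acetylated peaks among 7 distal ones. *Efna2* had both marks at both of its ends. At the 5′ end its H3K27ac peak was 1975 bp wide, and at the 3′ end 633 bp. *Efna3* had 2 acetylated ATAC peaks under a single H3K27ac peak of 2143 bp, and 2 acetylated peaks among 5 distal ones. *Efna4* had an ATAC peak of 308 bp under H3K27ac of 1328 bp. *Efna1* stood apart from the other ephrin-A genes. Its 5′ end carried an ATAC peak of 270 bp without H3K27ac, and its H3K27ac peak (870 bp) reached the window of its 3′ end alone, where it also covered an end of a neighbouring gene.

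*Efna1*, *Efna3* and *Efna4* lie next to each other on chromosome 3. Between *Efna3* and *Efna4* lay 1 H3K27ac peak of 1782 bp (chr3:89327445-89329226 on mm10). It covered all or part of 2 ATAC peaks, of which the 303 bp peak lay nearest *Efna3* (4329 bp away) and the 266 bp peak nearest *Efna4* (4443 bp away). Assignment to the nearest end thus splits 1 acetylated stretch between both ligands.

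Of the ephrin-B ligands, *Efnb1* had an acetylated ATAC peak of 293 bp at its start, and 2 acetylated peaks among 4 distal ones, 50258 and 67860 bp from its end. *Efnb2* had an acetylated ATAC peak of 505 bp at its start, and its H3K27ac peak of 3370 bp ran on over a further ATAC peak of 195 bp inside the gene. *Efnb3* had 1 ATAC peak (422 bp) and no distal or inside peak. An end of *Wrap53* lies 604 bp from the end of *Efnb3* at which both marks were found, so that window serves 2 genes. Another gene also ends within 1 kb of an end of *Ntn5* (*Sec1*, 154 bp), *Draxin* (*Mad2l2*, 981 bp), *Ephb6* (*Trpv6*, 110 bp) and *Unc5a* (*Hk3*, 33 bp).

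The EphA receptors, which bind mostly ephrin-A ligands, were divided. Of 9 genes, 7 had ATAC at an end and 4 also had H3K27ac there: *Epha3*, *Epha5*, *Epha7* and *Epha10*. *Epha5* had an ATAC peak of 688 bp under H3K27ac of 2182 bp at its 5′ end and no other peak in its 363 kb. *Epha7* had 435 bp of ATAC under 3284 bp of H3K27ac, which also took in an ATAC peak of 271 bp inside the gene. *Epha3* had 455 bp under 727 bp, with an acetylated ATAC peak of 378 bp inside it. *Epha10* had 601 bp of ATAC and 791 bp of H3K27ac at its start and 2 acetylated distal peaks inside the gene (499 and 404 bp). Ends of *Maneal* and *Cdca8* lie 592 and 664 bp from those of *Epha10*.

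The other 5 EphA genes had no H3K27ac peak of any class. *Epha4*, a receptor for both ephrin classes, had ATAC at its start (282 bp), 2 peaks inside and 4 distal ones, none acetylated. *Epha2* had ATAC at its start (303 bp), 2 inside and 3 distal, none acetylated, and *Epha1* had a single peak of 349 bp at its start. *Epha6* and *Epha8* had no peak at an annotated end, with 4 and 2 ATAC peaks inside. *Robo3* was the sixth gene with ATAC and no H3K27ac. These 6 made up 14.6% of the 41 members with any ATAC peak, against 23.8% of the 16533 such genes over all.

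The EphB receptors, which bind mostly ephrin-B ligands, had ATAC at an end in 5 of 5 genes and H3K27ac in 4. *Ephb4* had 522 bp of ATAC under 1384 bp of H3K27ac and no other peak. *Ephb6*, which lacks kinase activity, had 135 bp of ATAC at its end and 690 bp over its RefSeq start. An H3K27ac peak of 1338 bp covered the second of these and part of the first. *Ephb3* had 518 bp of ATAC overlapping 1017 bp of H3K27ac, and 4 acetylated peaks among 6 distal ones, the most of any member and a number that 97 of all genes exceeded. These 4 overlapped 3 H3K27ac peaks and lay 6087, 22666, 23355 and 87619 bp from the nearest gene end. *Ephb1* had ATAC at its start (411 bp) without H3K27ac, 8 ATAC peaks inside and 1 acetylated peak among 6 distal ones.

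*Ephb2* had ATAC peaks along its length but H3K27ac at its start alone. At the 5′ end it had 147 bp of ATAC under 1996 bp of H3K27ac. Inside its 189 kb lay 10 ATAC peaks, and 11 distal peaks were assigned to it, 10 of them the same peaks. None of the 11 was acetylated, and their widths ran between 121 and 538 bp. Of the 107 other genes with at least 11 distal ATAC peaks, 11 (10.3%) had none acetylated.

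Promoters follow for the member of each ephrin and Eph class with the most acetylated distal ATAC peaks, with ties broken by the widest ATAC peak over the window. Each is the RefSeq sequence on GRCm38.p6 from 250 bases before the start to 50 bases after its first base, read 5′ to 3′ on the strand of the gene. Capitals mark matches, on either strand, to the RUNX core TGTGGT or the GC box GGGCGG. RUNX factors, which include Runx3 of this lineage, bind the first, and Sp factors the second. A match describes letters and is not a measured site.
Efna3: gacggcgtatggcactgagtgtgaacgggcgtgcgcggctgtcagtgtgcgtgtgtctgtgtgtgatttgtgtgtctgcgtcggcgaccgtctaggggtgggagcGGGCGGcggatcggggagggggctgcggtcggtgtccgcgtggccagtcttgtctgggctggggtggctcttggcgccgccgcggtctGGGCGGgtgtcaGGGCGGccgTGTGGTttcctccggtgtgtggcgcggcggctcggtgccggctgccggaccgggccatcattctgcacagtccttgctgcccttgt
Efnb1: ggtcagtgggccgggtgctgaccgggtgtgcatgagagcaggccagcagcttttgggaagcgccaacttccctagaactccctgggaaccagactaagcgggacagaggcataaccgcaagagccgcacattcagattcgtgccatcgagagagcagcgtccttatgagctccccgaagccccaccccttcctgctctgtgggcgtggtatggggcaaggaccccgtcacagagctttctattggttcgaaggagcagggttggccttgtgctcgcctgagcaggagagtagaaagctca
Epha10: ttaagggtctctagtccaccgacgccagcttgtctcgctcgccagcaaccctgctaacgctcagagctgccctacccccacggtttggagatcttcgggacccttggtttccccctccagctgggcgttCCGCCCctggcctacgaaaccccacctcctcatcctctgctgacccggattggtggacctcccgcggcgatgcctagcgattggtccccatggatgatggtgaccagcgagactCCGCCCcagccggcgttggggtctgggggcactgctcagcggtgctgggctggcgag
Ephb3: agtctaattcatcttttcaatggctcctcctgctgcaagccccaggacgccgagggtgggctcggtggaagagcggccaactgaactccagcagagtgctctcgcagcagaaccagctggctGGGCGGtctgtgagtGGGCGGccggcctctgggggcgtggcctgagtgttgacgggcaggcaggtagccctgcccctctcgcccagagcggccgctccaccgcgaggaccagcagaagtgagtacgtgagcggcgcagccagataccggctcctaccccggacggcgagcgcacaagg
The *Efna3* window (chr3:89321719-89322018, minus strand, its internal start) holds 1 RUNX core and 3 GC boxes, and an ATAC peak of 329 bp overlapped it. The *Efnb1* window (chrX:99135811-99136110, plus strand) holds neither motif, and an ATAC peak of 293 bp overlapped it. The *Epha10* window (chr4:124881535-124881834, plus strand) and the *Ephb3* window (chr16:21204545-21204844, plus strand) hold 2 GC boxes each, under ATAC peaks of 601 and 518 bp.

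No Slit or Robo gene had both marks at an annotated end, though several carried many open or acetylated elements inside. The Slit genes held 33 ATAC peaks inside, 4 of them acetylated (12.1%), against 27.7% of 15822 ATAC peaks inside all genes. The Robo genes held 14, of which 6 were acetylated (42.9%). Of the 23 H3K27ac peaks inside Robo genes, 19 were in *Robo1*.

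*Slit3*, a secreted repellent, had 17 ATAC peaks inside its 587 kb, and 19 of all genes had more. Only 1 of the 17 was acetylated, by an H3K27ac peak of 662 bp, and its 7 distal peaks were not. Of the 27 other genes with at least 17 ATAC peaks inside, 1 (3.7%) had at most 1 acetylated, and 7 (25.9%) had neither mark at an end. *Slit1* had 13 ATAC peaks inside 149 kb, which is 8.70 per 100 kb, against 1.55 per 100 kb pooled over all genes. Of these 13, 2 were acetylated, and 4 H3K27ac peaks lay inside the gene. All 13 were also its distal peaks, and the one nearest to an annotated end was 3465 bp away. *Slit2* had 3 ATAC peaks inside 326 kb, of which 1 was acetylated.

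The annotated ends of several members lie away from the start that RefSeq gives for their transcripts. A RefSeq start was at hand for 37 members (all but *Slit1*, *Ntn1*, *Efnb3*, *Dcc* and *Unc5d*). Within 1 kb of such a start, ATAC was found at 32 of 37 (86.5%), against 62.3% of 17491 genes. H3K27ac was found at 23 of 37 (62.2%), against 51.6%, and both marks at 23 (62.2%), against 50.6%. In *Epha6*, *Ephb6*, *Slit2*, *Robo1*, *Ntng1* and *Unc5a*, every RefSeq start lay over 1 kb from the annotated 5′ end. These are 6 of 37 members (16.2%), against 9.95% of all genes. All 6 had ATAC at that start and 4 had both marks, against 60.5% and 48.2% of the 1740 such genes over all.

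*Robo1*, a receptor for Slits, showed this most plainly. Its annotated 5′ end lies 636 kb before its RefSeq start and had no peak in its window. The RefSeq start had an ATAC peak of 798 bp under H3K27ac of 2319 bp. From there to the end of the gene, over 384 kb, lay 15 of its 19 H3K27ac peaks, counting the one at the start, with a median width of 741 bp and the widest 4059 bp. The 636 kb before the start held 4, with a median width of 232 bp. Only 6 of all genes had more H3K27ac peaks inside than *Robo1*. Of its 8 ATAC peaks inside, 5 were acetylated.

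*Robo2* was alike in where its H3K27ac lay. It has 3 RefSeq starts in 1555 kb. The far 5′ start had ATAC (316 bp) without H3K27ac, the middle start, 355 kb into the gene, had neither, and the start 1036 kb into the gene had ATAC of 458 bp under H3K27ac of 3294 bp. All 4 of its H3K27ac peaks lay at or after that last start. *Slit2* had ATAC of 515 bp under H3K27ac of 1698 bp at its RefSeq start, 1864 bp from the annotated end. *Robo3*, which tunes the response of crossing axons to Slits, had no peak at its start, 2 ATAC peaks inside and 3 distal ones, none acetylated.

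**Figure D2:**
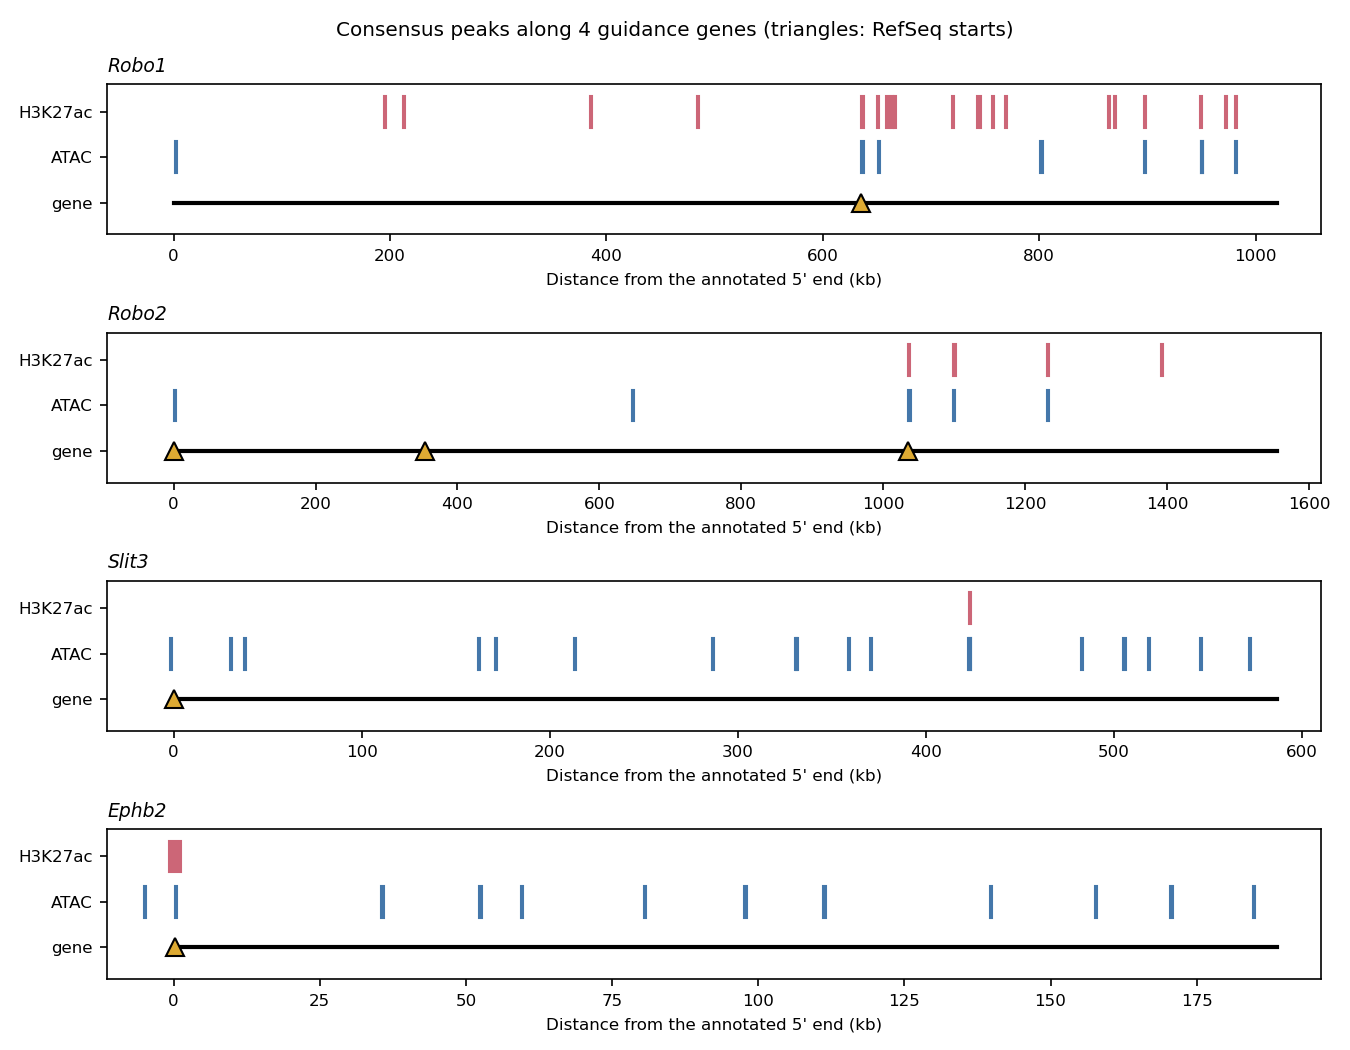
Consensus peaks counted for *Robo1*, *Robo2*, *Slit3* and *Ephb2* along each gene, in kb from its annotated 5′ end; black lines are the genes, triangles RefSeq starts, blue boxes ATAC and red boxes H3K27ac, with narrow peaks drawn at a least width so that they show. H3K27ac in *Robo1* and *Robo2* lies mostly at and after an internal start, 636 and 1036 kb in, while *Slit3* and *Ephb2* show ATAC peaks along the gene with 1 H3K27ac peak each.

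Promoters of *Slit2* and *Robo1*, at starts with both marks, stand here beside those of *Slit3* and *Robo3*, at starts with no peak. In *Robo3*, capitals also mark the EBF palindrome (TCCC, then any pair of bases, then GGGA), the site of EBF factors.
Slit2: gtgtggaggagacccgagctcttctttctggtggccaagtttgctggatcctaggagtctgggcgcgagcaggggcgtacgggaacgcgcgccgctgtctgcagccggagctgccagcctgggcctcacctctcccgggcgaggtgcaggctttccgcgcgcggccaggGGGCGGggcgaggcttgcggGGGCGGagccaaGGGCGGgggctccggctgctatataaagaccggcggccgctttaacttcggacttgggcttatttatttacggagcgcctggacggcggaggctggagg
Robo1: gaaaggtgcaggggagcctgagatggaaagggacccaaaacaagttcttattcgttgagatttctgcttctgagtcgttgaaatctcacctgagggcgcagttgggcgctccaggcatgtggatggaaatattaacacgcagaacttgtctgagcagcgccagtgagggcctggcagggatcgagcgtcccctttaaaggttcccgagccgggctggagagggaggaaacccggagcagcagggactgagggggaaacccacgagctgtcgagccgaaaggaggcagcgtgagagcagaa
Slit3: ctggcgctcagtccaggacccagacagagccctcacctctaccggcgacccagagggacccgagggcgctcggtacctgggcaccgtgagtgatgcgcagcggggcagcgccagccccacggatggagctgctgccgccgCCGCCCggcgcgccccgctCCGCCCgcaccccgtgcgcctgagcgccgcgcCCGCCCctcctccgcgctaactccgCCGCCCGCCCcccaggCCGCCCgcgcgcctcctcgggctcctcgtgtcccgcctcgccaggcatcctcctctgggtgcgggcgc
Robo3: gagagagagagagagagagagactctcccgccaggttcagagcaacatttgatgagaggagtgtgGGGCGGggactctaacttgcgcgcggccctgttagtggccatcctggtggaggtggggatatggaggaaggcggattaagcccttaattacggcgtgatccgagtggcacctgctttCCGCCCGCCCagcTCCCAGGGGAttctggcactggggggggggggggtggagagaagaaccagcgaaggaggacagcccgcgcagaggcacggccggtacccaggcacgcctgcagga
The *Slit2* window (chr5:47982905-47983204, plus strand) holds 3 GC boxes and 30 CG dinucleotides, and the *Robo1* window (chr16:72662899-72663198, plus strand) holds no motif searched and 15 CG dinucleotides. The *Slit3* window (chr11:35121206-35121505, plus strand) holds 6 GC boxes and 41 CG dinucleotides, and the *Robo3* window (chr9:37433126-37433425, minus strand) holds 3 GC boxes, 1 EBF palindrome and 17 CG dinucleotides. The windows with both marks thus held 3 and 0 GC boxes, and those without a peak held 6 and 3. These 4 chosen windows do not stand for the rest. Over the members' windows, a GC box was in 75.8% of those under ATAC and 44.4% of those without ATAC.

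Among the netrins, *Ntn1*, *Ntn3* and *Ntn4* had both marks at an end. *Ntn1*, known from the floor plate of the spinal cord, had 484 bp of ATAC under 600 bp of H3K27ac, 3 ATAC peaks inside 177 kb, and 1 acetylated peak among 4 distal ones. *Ntn3* had 339 bp of ATAC under 3667 bp of H3K27ac and 1 acetylated distal peak. *Ntn4* had 739 bp of ATAC, covered in part by 996 bp of H3K27ac, and neither of its 2 distal peaks was acetylated. *Ntn5* had 211 bp of ATAC whose nearest edge lay 996 bp from its start. That peak was acetylated, although the H3K27ac peak itself (419 bp) lay 1114 bp away and so outside the window. *Draxin*, a secreted repellent that binds Dcc, had 3 acetylated ATAC peaks (471, 163 and 281 bp) under 1917 bp of H3K27ac, 5 ATAC peaks inside and 1 acetylated peak among 2 distal ones.

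The netrin-G genes, whose products are anchored in the membrane and bind NGL proteins, had no peak at an annotated end. *Ntng1* had 3 ATAC peaks (248, 275 and 367 bp) within 1 kb of its RefSeq start, 6500 bp into the gene, with H3K27ac of 1049 bp over that start. *Ntng2* had neither mark at its start. It had 3 ATAC peaks inside, 1 acetylated peak among 6 distal ones, and an H3K27ac peak of 3319 bp without ATAC, 2233 bp from the gene.

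Of the 6 netrin receptors, *Dcc*, *Neo1* and *Unc5c* had both marks at an end. *Neo1* (neogenin) had the widest ATAC peak at an end of any member (1171 bp), under H3K27ac of 2515 bp, and nothing inside its 162 kb. *Unc5c* had 958 and 140 bp of ATAC under 3666 bp of H3K27ac at its start, and 6 H3K27ac peaks inside the gene, 2 of them over ATAC peaks. *Dcc* had 375 bp of ATAC at an end and H3K27ac of 1545 bp in the same window, but the peaks did not overlap. *Unc5b* and *Unc5d* had ATAC at an end (345 bp, and 160 and 750 bp) without H3K27ac. *Unc5b* also had 8 distal peaks, of which 1 was acetylated, 93740 bp from the gene. *Unc5a* had ATAC of 214 bp at its RefSeq start, 4260 bp into the gene, without H3K27ac, and an acetylated ATAC peak of 469 bp further inside.

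Promoters are shown of *Ntng1*, whose start with both marks lies away from the annotated end, and of *Unc5c*. *Unc5c* is among the 4 netrin receptors with 1 acetylated distal peak and has the widest ATAC peak over its window. Capitals are as above.
Ntng1: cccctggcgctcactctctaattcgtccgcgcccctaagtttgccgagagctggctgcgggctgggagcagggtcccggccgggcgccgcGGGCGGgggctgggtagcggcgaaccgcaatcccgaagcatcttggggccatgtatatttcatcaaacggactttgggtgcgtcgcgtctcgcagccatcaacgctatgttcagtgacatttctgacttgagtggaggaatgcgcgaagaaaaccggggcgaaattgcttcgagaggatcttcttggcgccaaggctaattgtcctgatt
Unc5c: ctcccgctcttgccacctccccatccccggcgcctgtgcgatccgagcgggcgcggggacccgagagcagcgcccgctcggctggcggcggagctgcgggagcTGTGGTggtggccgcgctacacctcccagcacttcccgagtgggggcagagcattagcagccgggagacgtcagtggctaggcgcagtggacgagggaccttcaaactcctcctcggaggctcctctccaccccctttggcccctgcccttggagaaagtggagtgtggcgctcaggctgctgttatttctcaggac
The *Ntng1* window (chr3:110143423-110143722, minus strand) holds 1 GC box. The *Unc5c* window (chr3:141465314-141465613, plus strand) holds 1 RUNX core and no GC box, and ATAC peaks of 367 and 958 bp overlapped the windows of *Ntng1* and *Unc5c*.

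Ligand and receptor genes were open at an end about equally often, and differed in the acetylated share. ATAC lay at an end of 13 of 18 ligand genes (72.2%) and 18 of 24 receptor genes (75.0%). Both marks lay at an end of 12 ligand genes (66.7%) and 11 receptor genes (45.8%), a difference of 20.8 percentage points. The share over all genes was 47.8%. The ligand classes were unlike: both marks lay at 5 of 5 ephrin-A, 3 of 3 ephrin-B and 3 of 4 netrin genes and at *Draxin*. They lay at 0 of 3 Slit genes and 0 of 2 netrin-G genes, so the higher share was not common to all ligands. Of the ATAC peaks at ends, 17 of 20 were acetylated in ligand genes (85.0%) and 11 of 20 in receptor genes (55.0%). ATAC without H3K27ac at an end was found in 1 ligand gene (*Ntn5*) and in 7 receptor genes. With at least 50% of a peak required inside the window, the difference turned to -1.39 points (27.8% of ligand genes, 29.2% of receptor genes), so its direction depends on this setting. An acetylated distal peak was found for 12 ligand genes (66.7%) and 11 receptor genes (45.8%), against 15.4% of all genes.

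The A class (EphA and ephrin-A, 14 genes) had both marks at an end in 9 genes (64.3%), and the B class (EphB and ephrin-B, 8 genes) in 7 (87.5%), a difference of -23.2 points. ATAC lay at an end of 12 A genes (85.7%) and all 8 B genes. The genes without both marks in their end windows were receptors: 5 of 9 EphA genes and *Ephb1* of 5 EphB genes. *Efna1* counts among the A genes with both marks although they lie at opposite ends. Where the ATAC peak itself had to be acetylated, the shares were 57.1% of A genes and 87.5% of B genes. With the wider 50% of each peak list the difference turned to 5.36 points (42.9% of A, 37.5% of B), and with windows of 0.5 kb it was -5.36. At 14 and 8 genes, 1 gene moves these shares by several points, and no test was made. An acetylated distal peak was found for 6 A genes (42.9%) and 5 B genes (62.5%).

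**Figure D3:**
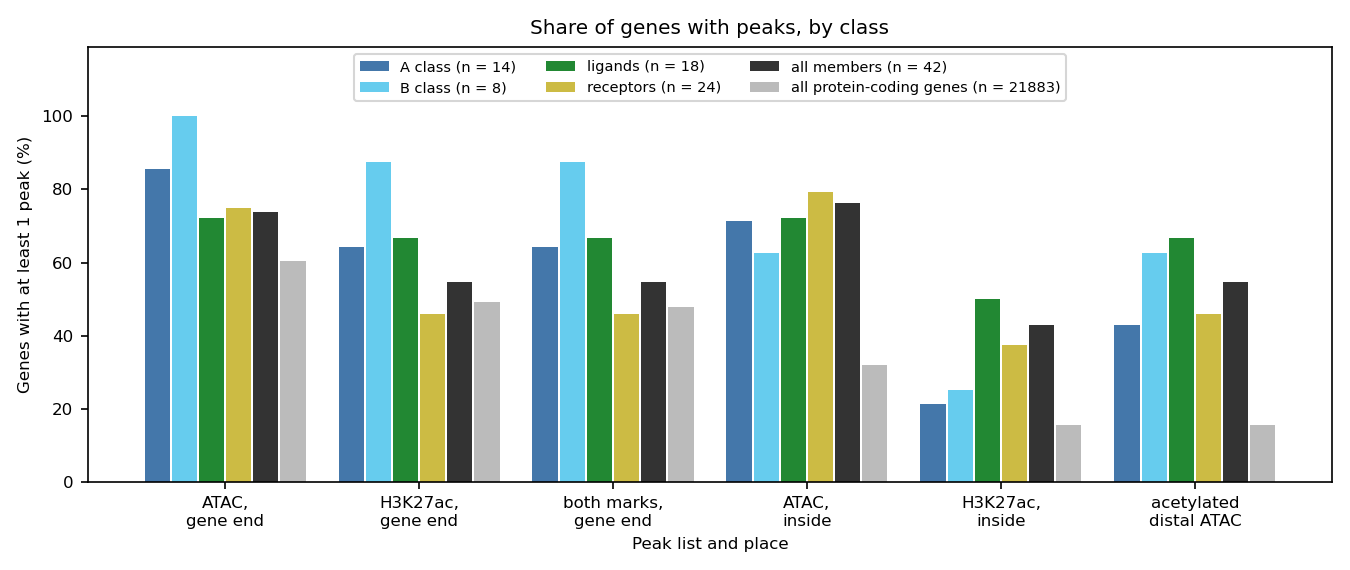
Share of genes (%, from 0) with at least 1 peak of each kind, for the A and B classes, ligands, receptors, all 42 members and all 21883 protein-coding genes. B genes stand above A genes, and ligands above receptors, for both marks at an end, while ligands and receptors are close for ATAC at an end (72.2% and 75.0%).

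Inside the genes, the members held more peaks than other genes, and they are also long. ATAC was found inside 32 members (76.2%), against 32.0% of all genes, and H3K27ac inside 18 (42.9%), against 15.4%. The median gene length was 64.9 kb among members and 17.2 kb over all genes. Under 50 kb, 11 of 19 members (57.9%) had ATAC inside, against 21.3% of all genes of that length, and 4 (21.1%) had H3K27ac, against 7.26%. Between 50 and 200 kb the counts were 9 of 10 (90.0%), against 64.1%, and 4 of 10 (40.0%), against 37.5%. Over 200 kb they were 12 of 13 (92.3%), against 85.9%, and 10 of 13 (76.9%), against 65.7%. Short members stood furthest from genes of their length class. That class is not matched in length: the shortest member has 4.64 kb and the shortest of all genes 0.144 kb. The shortest genes lie wholly in their own end windows and can hold no inside peak. Pooled per 100 kb of gene, members held 1.24 ATAC peaks, against 1.55 for all genes, and 0.557 H3K27ac peaks, against 0.63. Averaged gene by gene, the order turned round. Members had a mean of 4.51 ATAC peaks per 100 kb (SD 7.82), against 1.78 (SD 4.23). For H3K27ac the means were 1.11 (SD 2.98) and 0.484 (SD 1.71). Long members differed among themselves: *Dcc* held 0.182, *Unc5d* 0.175 and *Slit3* 2.9 ATAC peaks per 100 kb. The part of single genes in the pooled value was not tested.

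**Figure D4:**
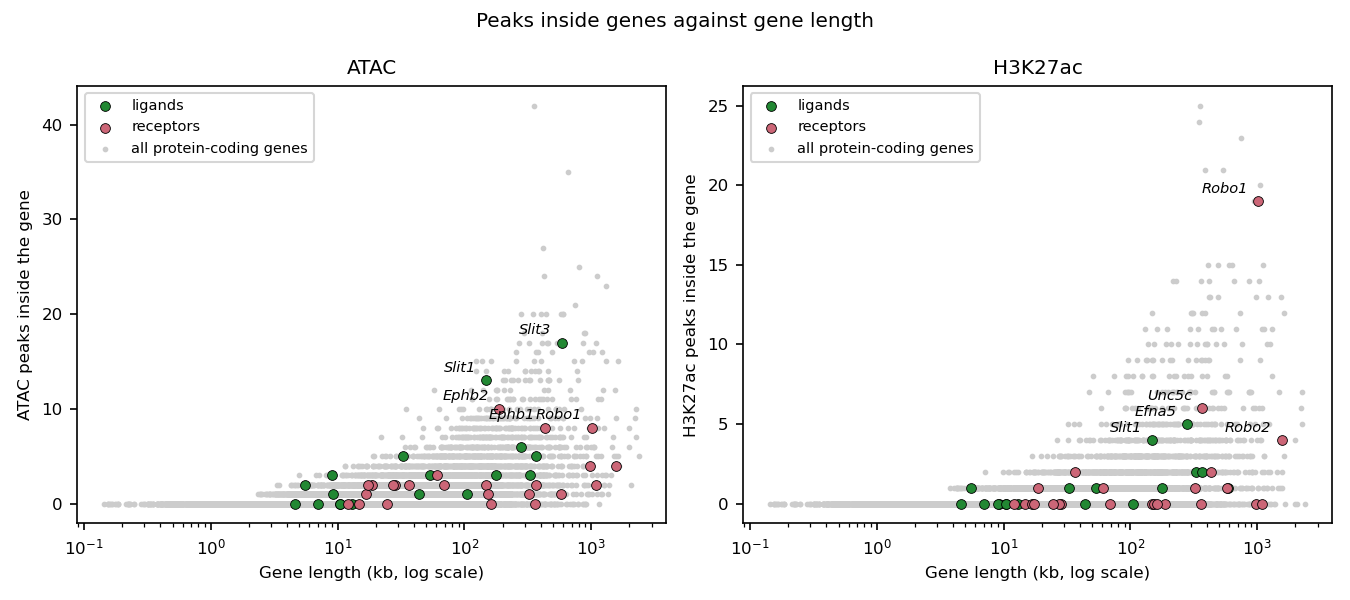
ATAC peaks (left) and H3K27ac peaks (right) inside each gene against gene length in kb on a log scale, for ligands, receptors and all protein-coding genes (grey), with the 5 highest members named. *Slit3* and *Slit1* lead for ATAC, with 17 and 13, and *Robo1* stands far above the other members for H3K27ac, with 19.

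Distal open elements were more numerous at these genes, but 89 of their 132 distal ATAC peaks were also counted as inside the gene. An acetylated distal ATAC peak was assigned to 23 members (54.8%), against 15.4% of all genes. Per gene, members had 3.14 distal ATAC peaks (SD 2.97 over 42 genes), against 1.11 (SD 1.88), and 0.786 acetylated ones (SD 0.898), against 0.249 (SD 0.738). The acetylated share of the distal peaks themselves was close to that of all genes, at 33 of 132 (25.0%) against 22.4%. The median was 1 acetylated distal peak per member and 0 over all genes. A long gene far from its neighbours has more sequence from which peaks are assigned to it; the part of length in these counts was not tested. *Ephb3* had 4, and *Epha10*, *Efna3*, *Efna5*, *Efnb1*, *Slit1*, *Robo1* and *Ntng1* had 2 each. *Slit1* had the most distal ATAC peaks (13), a number that 34 of all genes exceeded.

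**Figure D5:**
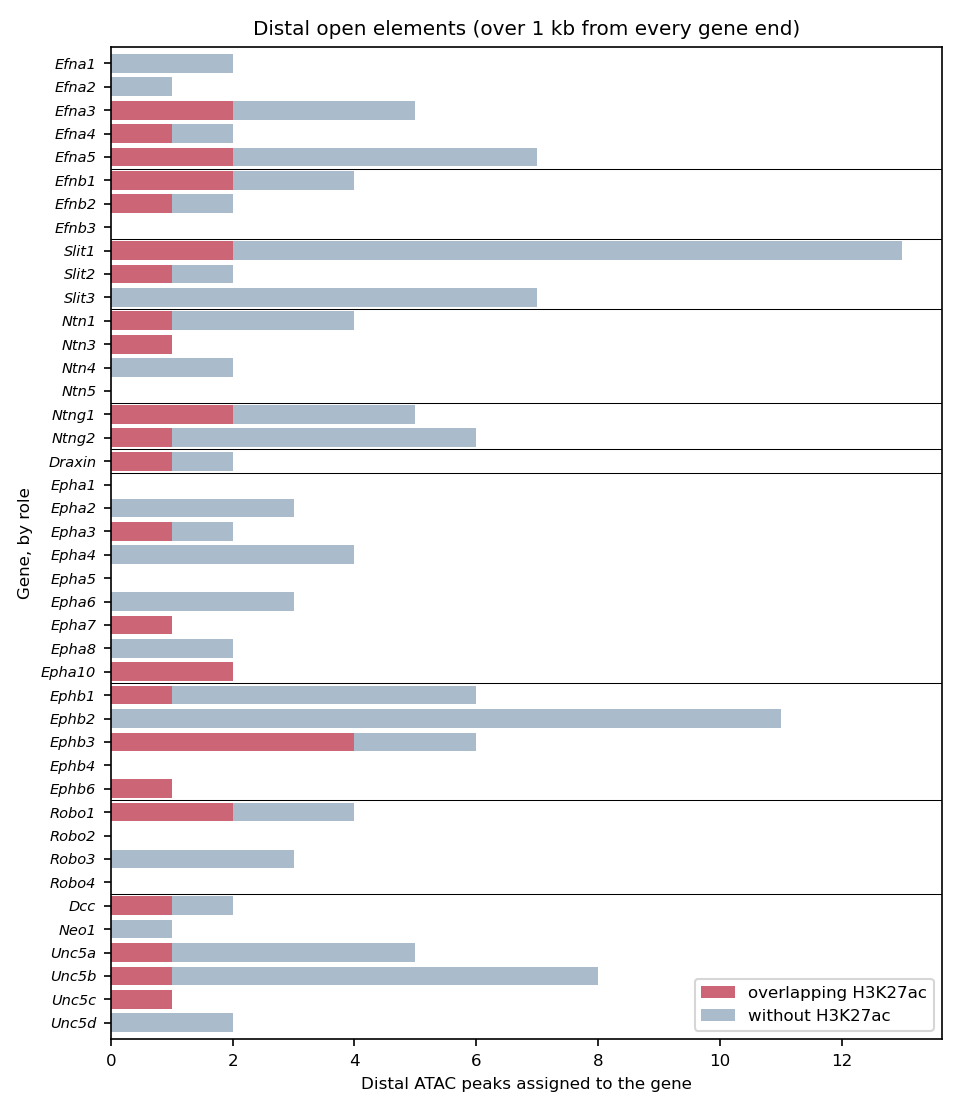
Distal ATAC peaks assigned to each of the 42 genes, ligands above receptors and grouped by role; red are peaks overlapping H3K27ac, grey-blue those without. The red part is 4 of 6 in *Ephb3* and absent in *Ephb2* (11 peaks) and *Slit3* (7 peaks).

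The sequence of members' starts was rich in G and C. Over 42 RefSeq promoter windows of 37 members, the median G and C content was 64.8%, against 56.3% over 21262 windows of all genes, and the median number of CG dinucleotides was 21.5, against 13. A GC box was held by 29 windows (69.0%), against 46.2%. An ATAC peak overlapped 33 of the 42 windows (78.6%), against 54.5%. Among windows under ATAC, GC boxes were in 75.8% of members' windows and 70.9% of all. The median G and C content of these was 66.3% and 62.7%. Among windows without ATAC, GC boxes were in 44.4% of 9 members' windows and 16.5% of all. The RUNX core was in 4 members' windows (9.52%: *Efna3*, *Efna4*, *Ephb1* and *Unc5c*), against 15.0% of all. Among windows under ATAC the shares were close, at 9.09% of members' windows and 10.7% of all. The proneural E-box CAGATG was also in 4 members' windows (9.52%), against 14.6%, and the EBF palindrome in 1 (2.38%), against 0.959%. Under ATAC, the E-box was in 6.06% of members' windows and 10.1% of all. All motifs were searched on both strands.

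Most genes that work with these ligands and receptors, or carry their signals inside the cell, had both marks. Of 44 listed partners and effectors, such as the kinase Fyn, the GTPases Rac1, Cdc42 and Rhoa, and the Slit-Robo GTPase-activating proteins Srgap1, Srgap2 and Srgap3, 38 (86.4%) had both marks at an end, against 54.8% of the members and 47.8% of all genes. *Lrrc4c* and *Dscam* had ATAC alone, and *Tiam1* had H3K27ac alone. *Ngef*, *Enah* and *Flrt2* had neither at an end. All 44 had H3K27ac at an end or inside the gene, a measure whose share over all genes was not counted.

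The lists were also read for the identity of the sorted cells. Of 8 sensory neuron markers, 6 had both marks at an end, *Runx3* had ATAC alone and *Ntrk3*, which encodes TrkC, had neither, but all 8 had H3K27ac at an end or inside. Of 6 glial and neural crest markers, 3 had both marks and 5 had H3K27ac at an end or inside. Over all genes, 47.8% had both marks at an end. Both marks were found at 0 of 5 endothelial and mural markers, 1 of 5 blood markers (*Cd4*), 1 of 5 muscle and mesenchyme markers (*Twist1*) and 0 of 5 spinal cord markers. In the same order, H3K27ac lay at an end or inside of 1, 2, 1 and 0 of them. The share of all genes with H3K27ac at an end or inside was not counted. Taken apart, H3K27ac lay at an end of 49.3% and inside 15.4% of all genes. ATAC alone was found at 1 endothelial and mural marker (*Kdr*), 1 blood marker (*Spi1*), 3 muscle and mesenchyme markers (*Myod1*, *Col1a1* and *Pax1*) and 4 spinal cord markers (*Olig2*, *Mnx1*, *Atoh1* and *Lhx3*). Ends with ATAC alone were found in 12.6% of all genes. The part of glial or crest cells in the members' peaks was not tested.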

How the data were processed

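The authors sequenced ATAC, H3K27ac ChIP and input DNA libraries of 50000 sorted cells, and the submitters' processing notes name cutadapt 1.18, Bowtie2 2.3.5.1, MACS2, bedtools and the build mm10. Each deposited list, 1 consensus per assay, holds where a peak starts and ends (other values such as scores, counts or signal are absent from the lines). How the consensus was formed and with which thresholds is not given in the sources used here. Depth is unknown, the replicates of an assay cannot be set against each other, and input DNA was not used here.

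Kept for scoring were peaks on autosomes and sex chromosomes: 43652 of 43739 ATAC and 19924 of 19928 H3K27ac peaks. They were scored in Python 3.11.15 (numpy 2.4.6, pandas 2.3.3) against RefSeq GRCm38.p6 gene spans, which carry no strand, transcripts or exons. Strand and starts came from RefSeq promoter windows of 300 bases, which held 37 of the 42 members. Overlap means at least 1 shared bp. The scoring was tested on simulated peaks placed at known positions. No test was made, because the lists hold no values per sample, genes are not replicates, and the members and lists were chosen with earlier results of these data known. Shares over all protein-coding genes stand beside those of the members instead. All 42 members may be named: those with both marks at an end, with no peak, or with the most inside or acetylated distal peaks are given in full. Alternatives were other windows, distances and overlaps, the wider 50% of each list, 5′ ends alone, and ends apart from other genes; RefSeq starts and acetylation of the ATAC peak itself were added after seeing the data. The names of the glial and neural crest markers are not reported here.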

Additional observations from a re-analysis of the deposited data

How the results depend on the processing

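Over 9 results and 52 alternatives, 44 values kept their direction and, for counts, stayed within 1.5 times the reported one. With the wider 50% of each list, both marks were at an end of 14 members, H3K27ac inside 9, acetylated distal peaks at 10 members with 12 such peaks in all, and the A minus B difference turned to 5.36 points; this list holds fewer peaks by construction. With at least 50% of a peak inside the window, H3K27ac and both marks were at an end of 12 members, and the ligand minus receptor difference turned to -1.39 points; an H3K27ac peak that lies mostly beyond the window is not counted there. Both marks at an end numbered 19 with windows of 0.5 kb, 27 with 2.5 kb, 19 of 37 at the 5′ end alone, 19 of 36 with ends apart from other genes, 23 of 37 at RefSeq starts and 22 where the ATAC peak itself had to be acetylated. With ends apart from other genes, the share was 52.8% of members, against 39.5% of all such genes. The count at RefSeq starts holds different genes: it gains *Slit2*, *Robo1*, *Robo2* and *Ntng1*, loses *Efna1*, and leaves out *Efnb3*, *Ntn1* and *Dcc*, for which no RefSeq start was used. The count of 22 also holds different genes: it loses *Efna1* and *Dcc* and gains *Ntn5*, whose H3K27ac peak lies outside the end window. No paired analysis was possible because the replicates of each assay are merged in 1 list, and for the same reason no replicate could be left out. Gene ends take in predicted transcripts, nearest-end assignment names no target, and a missing peak can reflect the authors' unknown depth and threshold.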

Other observations

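MicroRNA hairpins of the RefSeq annotation lie inside 6 members. *Slit2* holds Mir218-1 and *Slit3* holds Mir218-2, both hosts of the miR-218 family. Mir218-1 lay 54689 bp from the nearest ATAC peak and 148276 bp from the nearest H3K27ac peak, and Mir218-2 lay 9714 and 71604 bp from them. Mir6352 in *Epha4* overlapped the edge of an ATAC peak of 395 bp, which was not acetylated. Mir7243 in *Ephb1* lay 746 bp from an ATAC peak and 2797 bp from an H3K27ac peak. Mir691 in *Robo2* (6459 and 5671 bp) and Mir6406 in *Ntn1* (5373 and 5107 bp) lay further off.

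Of the 55 H3K27ac peaks inside members, 23 (41.8%) overlapped an ATAC peak, against 46.7% of 6468 inside all genes. The peaks without ATAC include the widest inside *Robo1* (4059 bp, 106833 bp after its RefSeq start) and one of 3615 bp in *Efna5*.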
